A study of Homo sapiens with 2 samples.

Results

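ABCA1, ABCA8, ABCA9 and ABCG1, lipid transporters of the ATP-binding cassette (ABC) superfamily, had more than 2-fold higher signals in drug-selected than in parental melanoma cells. For ABCA9 this held with 1 of 2 probes. For ABCG1 it held with 2 of 5 probes, and with 1 when the undetected parental signal was set at the lowest detected one. ABCA3, ABCA5 and ABCA7 differed by less. The genes described are ABCA1, ABCA2, ABCA3, ABCA5, ABCA6, ABCA7, ABCA8, ABCA9, ABCA10 and ABCG1. They belong to the ABCA subfamily, apart from ABCG1, and were chosen with earlier results of these data known. ABCA4, ABCA12, ABCA13 and the other ABCG genes are not among them. The study had already reported ABCA1, ABCA8, ABCA9 and ABCG1 as upregulated on these arrays. Every probe that the platform's annotation assigns to a chosen gene was used and kept separate. This gave 10 of the 20046 genes named on the array and 22 of its 47323 probes. The drug-selected cells were A2058 cells, an established human melanoma line, that had survived carmustine, an alkylating agent that crosslinks DNA. The labels give 100 uM of the drug for 6 months, and the study's methods describe cycles of rising dose with recovery between them. The parental A2058 cells were kept in culture over the same period without selection, in the same serum-supplemented medium. RNA of each was hybridized to 1 Illumina HumanHT-12 v4 bead array, so the drug-selected cells are represented by 1 selected population and no difference below has a replicate check, an SE or a p-value.

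ABC proteins bind and hydrolyse ATP to move molecules across membranes. The ABCA subfamily is made of large proteins that carry the whole transporter in a single chain, and most members with a known substrate move lipids. ABCA1 passes cholesterol and phospholipid from the plasma membrane to lipid-poor apolipoprotein A-I, the first step in making high-density lipoprotein, and ABCG1, a smaller protein that works as a dimer, promotes the transfer of sterol to lipoprotein particles already formed. In macrophages and many other cells both genes are switched on by the liver X receptors (LXR), nuclear receptors that sense oxysterols and bind DNA together with a retinoid X receptor (RXR). ABCA5, ABCA6, ABCA8, ABCA9 and ABCA10 lie side by side on chromosome 17 and form a branch of their own within the subfamily.

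A promoter was taken from RefSeq for 8 of the 10 genes, as the 250 bases before the start of transcription on GRCh38.p14. These 3 are shown because they lie on opposite sides of the results, ABCA1 and ABCA9 being higher in drug-selected cells and ABCA5 within 2-fold. In ABCA1 the capitals mark a spaced repeat of the kind that LXR with RXR binds, searched as GGTNA, 5 bases of any kind and GGTNA again, and found on the complementary strand. In ABCA5 they mark a match to the GC box GGGCGG on the complementary strand, and in ABCA9 nothing is marked because neither motif was found. All are on the minus strand and are written 5′ to 3′ along the gene.
ABCA1, chr9:104928156-104928405: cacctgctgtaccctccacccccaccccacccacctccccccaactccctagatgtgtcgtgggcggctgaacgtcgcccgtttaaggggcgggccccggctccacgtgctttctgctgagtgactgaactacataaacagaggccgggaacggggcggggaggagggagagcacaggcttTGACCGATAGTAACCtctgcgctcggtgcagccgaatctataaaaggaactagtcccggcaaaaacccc
ABCA9, chr17:69060928-69061177: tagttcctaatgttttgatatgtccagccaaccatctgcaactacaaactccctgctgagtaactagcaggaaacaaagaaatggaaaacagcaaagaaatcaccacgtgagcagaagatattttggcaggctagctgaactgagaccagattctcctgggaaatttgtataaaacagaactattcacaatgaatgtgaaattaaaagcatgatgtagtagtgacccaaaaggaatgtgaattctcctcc
ABCA5, chr17:69327134-69327383: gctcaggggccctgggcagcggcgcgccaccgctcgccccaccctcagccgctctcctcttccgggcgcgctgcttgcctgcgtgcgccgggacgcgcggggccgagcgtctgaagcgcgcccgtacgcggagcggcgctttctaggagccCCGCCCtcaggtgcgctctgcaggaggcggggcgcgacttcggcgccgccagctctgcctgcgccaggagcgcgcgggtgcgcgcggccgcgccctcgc

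ABCA8 and ABCG1 had no promoter window and were not searched for any motif. The spaced repeat of ABCA1 ended 54 bases before the start and was the only match among the 10 promoter windows of the other 8 genes. Of all 35116 RefSeq promoter windows of this length, 0.533% held one on either strand. The GC box was found in windows of ABCA1 (3 matches), ABCA3, ABCA5 and ABCA7, in 1 of 2 windows of ABCA2 and in 42.6% of all windows, and it was absent from the windows of ABCA6, ABCA9 and ABCA10. The letters TATAAA were found once in ABCA1, where they ended 25 bases before the start, once in ABCA9 and in 1 of 2 windows of ABCA10, against 10.7% of all windows. A loose form of the NF-kB site, searched as GGG, 5 bases of any kind and CC, occurred in 54.4% of all windows. ABCA1 had 3 overlapping matches, ABCA2 had 4 and 5 in its 2 windows, ABCA7 had 5, and ABCA3, ABCA5 and ABCA6 had 1 each. ABCA9 and ABCA10 had none. The genes of the chromosome 17 group differ in base composition. G and C made up 79.2% of the window of ABCA5, against 39.2% in ABCA9, 40.8% in ABCA6 and 23.6% and 31.2% in the 2 windows of ABCA10, and the median over all windows was 58% with quartiles of 46.4% and 68%. A match of letters describes the sequence and does not show that a factor binds it.

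The array reports the average signal of the beads that carry a probe, with a detection p-value set by that array's negative controls. A probe is called detected here at a detection p-value under 0.05. The drug-selected array was somewhat brighter, with a background level of 53.2 against 44.9 on the parental array and 45.6% against 42.5% of probes detected. Signals were therefore corrected for background, quantile normalized and put on the log2 scale, and higher or lower refers to a fold above 2 or under 0.5 on that scale. Signals given without a scale are the deposited ones before this correction. Where a probe was detected on 1 array only, the fold is a bound that sets the undetected side at its own value or at the lowest signal of any detected probe of that array, whichever is greater. Counts of higher and lower probes or genes use the normalized values, for the transporters and for all probes alike, and the bound is given beside them. Levels of different probes are not compared, since probes differ in how well they bind.

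Of the 22 probes, 7 were detected on both arrays, 6 on the drug-selected array only, none on the parental array only and 9 on neither. Over the whole array 6.79% of probes were detected on the drug-selected array only and 3.66% on the parental array only. By gene, 9 of 10 were detected in drug-selected cells and 6 in parental cells. ABCA1, ABCA9 and ABCA10 make up the difference, and ABCA6 was detected in neither. On normalized signals 6 of the 13 detected probes, from 4 genes, were higher in drug-selected cells and none was lower, against 5.84% higher and 5.07% lower among all 23307 detected probes. With bounds in place of measured values, 5 of the 13 were past 2-fold, since 1 probe of ABCG1 had a bound of 1.41-fold. With no filter on detection the same 6 of all 22 probes were higher and none lower, against 2.88% higher and 2.5% lower among all 47323. Of the 6, 5 were detected on the drug-selected array only, and a probe that passes the filter in this way tends to differ. Among the 7 probes detected on both arrays 1 was higher, a probe of ABCA8, against 4.77% of the 18360 such probes. The median log2 difference of the 7 was 0.11, against -0.05 over all probes detected on both arrays.

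**Figure D1:**
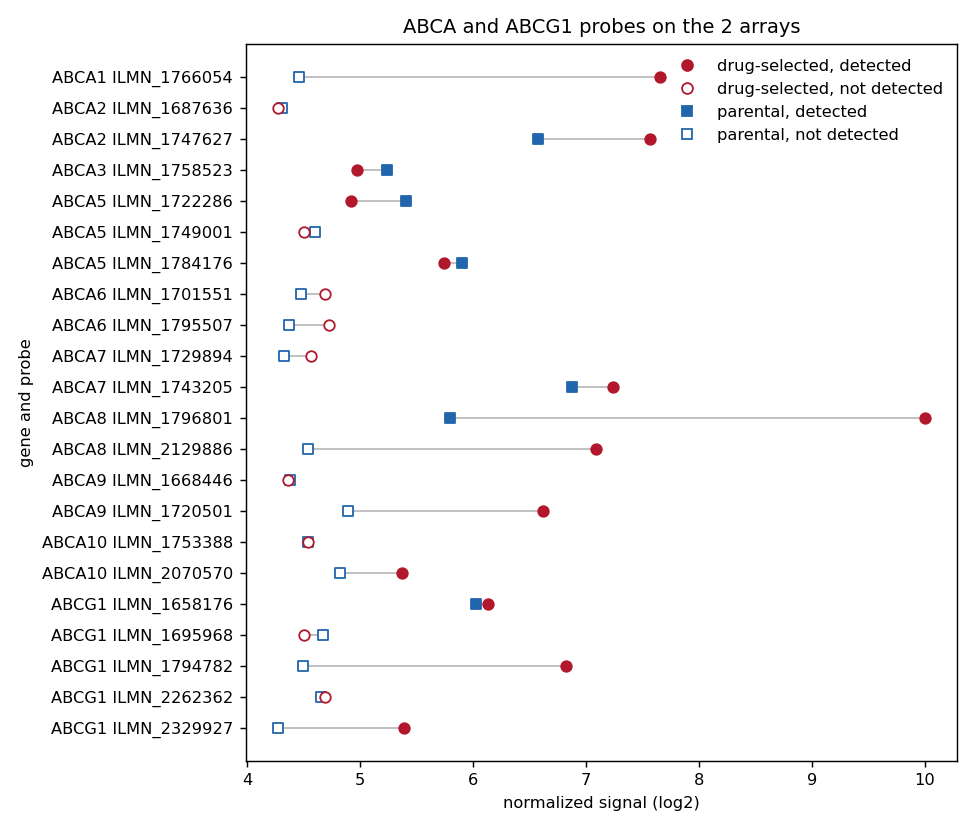
Normalized log2 signal (x axis) of each of the 22 probes (rows, by gene and probe name) on the drug-selected array (circles) and the parental array (squares), filled where the probe was detected. The drug-selected signal of ABCA8, ABCA1, 1 of 2 probes of ABCA9 and 2 of 5 probes of ABCG1 lies to the right of the parental one by more than 2-fold. The filled pairs of ABCA3, ABCA5 and ABCA7 lie close together.

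ABCA8, a transporter linked to cholesterol efflux and to sphingomyelin in the brain, was higher with both of its probes. Probe ILMN_1796801 had a signal of 1208 in drug-selected cells and 76.9 in parental cells and was detected on both arrays. Its normalized signal was 18.5-fold higher, a log2 difference of 4.21, which placed it 42nd from the top among the 23307 detected probes. The second probe, ILMN_2129886, had a signal of 194 in drug-selected cells and 48.3 in parental cells, close to background (detection p-value 0.299), and was at least 4.60-fold higher. Both probes are annotated to the same transcript. Parental cells thus gave a measurable ABCA8 signal with 1 probe and none with the other, and drug-selected cells gave one with both.

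The other members of the chromosome 17 group did not all follow ABCA8. ABCA9, whose transcript was described in macrophages, had signals with probe ILMN_1720501 of 150.5 in drug-selected cells and 56.3 in parental cells, at least 3.32-fold higher. Its parental detection p-value of 0.0519 lay just above the threshold, so that the bound and the measured log2 difference were nearly equal, at 1.73 and 1.74. Its other probe was at background on both arrays, with signals of 49.8 in drug-selected cells and 42.8 in parental cells. ABCA10 was detected in drug-selected cells with 1 of 2 probes, with a signal of 83.7 against 55.1 in parental cells (detection p-value 0.0740), and the difference was within 2-fold, with a bound of at least 1.39-fold. ABCA6 was detected with neither of its probes, which had signals of 62.7 and 63.8 in drug-selected cells and 46.4 and 42.3 in parental cells, and no fold is given. ABCA5, a lysosomal transporter, was detected on both arrays with 2 of 3 probes. Its probe ILMN_1784176 had a signal of 98.0 in drug-selected cells and 80.5 in parental cells, a log2 difference of -0.17, and ILMN_1722286 had 69.4 in drug-selected cells and 66.7 in parental cells, a log2 difference of -0.48. The difference of ABCA5 stayed small but changed sign for ILMN_1784176 with no normalization between arrays (0.24) and with scaling to the median (0.11). ABCA8 and ABCA5, at the ends of the row of 5 genes, each had detected signals on both arrays and lay far apart in the size of the difference. These proteins are close relatives, and whether a probe of one also binds RNA of another was not tested, since the probe sequences were not used here.

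Genes on either side of the row were compared with it, as the nearest 5 with a probe in each direction. The row runs from ABCA8 through ABCA9, ABCA6 and ABCA10 to ABCA5. On the side of ABCA8, ARSG, PRKAR1A, WIPI1 and MIR635 were detected on both arrays with log2 differences of -0.06, 0.06, -0.70 and 0.09, and FAM20A on neither. On the side of ABCA5, MAP2K6, a kinase of the p38 pathway, differed by 0.33, and KCNJ16 was detected in parental cells only and within 2-fold. KCNJ2, a potassium channel, was past 2-fold on normalized signals but at least 1.54-fold higher as a bound. SOX9, a transcription factor of neural crest and cartilage, was at least 17.8-fold higher, with a signal of 638 in drug-selected cells and 47.2 in parental cells. In all, 2 of the 8 detected neighbours were higher and none lower, where 7.12% of the 12832 detected genes were higher and 5.84% lower at 1 probe per gene. With bounds, ABCA8, ABCA9 and SOX9 were past 2-fold, and the genes between ABCA9 and SOX9, KCNJ2 included, were within 2-fold or undetected.

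**Figure D2:**
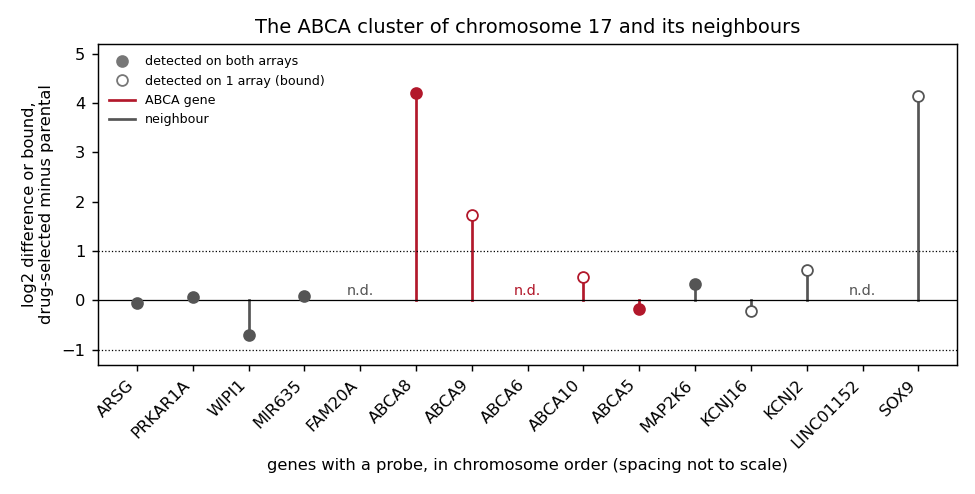
Log2 difference, drug-selected minus parental (y axis), of the chromosome 17 ABCA genes (red) and of the 5 genes with a probe on either side (grey), in chromosome order along the x axis without scale. Open circles are bounds for genes detected on 1 array, n.d. marks genes detected on neither, and dotted lines mark 2-fold. ABCA8 at 4.21 and SOX9 at a bound of 4.15 stand above genes that lie mostly between the dotted lines.

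ABCA1 and ABCG1, the sterol exporters, were compared next. ABCA1 has 1 probe, with a signal of 269 in drug-selected cells and 46.0 in parental cells. The parental signal was near the background level of 44.9 (detection p-value 0.432), so ABCA1 was at least 6.79-fold higher. This bound is 2.76 on the log2 scale. ABCA1 RNA was therefore well measured in drug-selected cells and was not separable from background in parental cells.

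The 5 probes of ABCG1 did not agree. Probe ILMN_1794782 had a signal of 167 in drug-selected cells and 46.8 in parental cells (detection p-value 0.394) and was at least 3.81-fold higher. ILMN_2329927 had 84.3 in drug-selected cells and 36.3 in parental cells (detection p-value 0.921), past 2-fold on normalized signals and at least 1.41-fold higher as a bound. These 2 probes are annotated to the same transcript, and the other 3 each to a different one. Of those, ILMN_1658176 was detected on both arrays with signals of 118 in drug-selected cells and 84.7 in parental cells, which is 1.08-fold after normalization. The last 2 probes, ILMN_2262362 and ILMN_1695968, were detected on neither array, with signals of 62.7 and 56.5 in drug-selected cells and 51.3 and 51.7 in parental cells. The difference of ABCG1 thus depended on the probe and was seen with both probes of 1 annotated transcript. To measure how far probes of 1 gene usually disagree, the SD over genes of the disagreement between 2 of their probes was scaled to a single probe, which gave 0.297 over 2892 genes and 0.365 over the 1443 whose dimmer probe had a mean log2 signal under 7. These SDs describe a single probe, and 2 probes of a gene differ from each other by more. They come from probe pairs that passed detection in drug-selected and parental cells alike. The ABCG1 bounds of 1.93 and 0.50 instead rest on undetected parental signals. The bound of 1.93 lay above the probe at 0.11 by much more than either SD. The bound of 0.50 is a minimum and lay too near 0.11 for this comparison to decide.

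ABCA2, ABCA3 and ABCA7 remained. ABCA2, a transporter of endosomes and lysosomes with a role in myelin lipids, had a signal of 256 in drug-selected cells and 110 in parental cells with probe ILMN_1747627. This was 1.997-fold, just short of the threshold, and ranked 1365th from the top. Its second probe was at background on both arrays, with signals of 43.5 in drug-selected cells and 39.2 in parental cells. ABCA7, an ABCA1 relative known for its role in phagocytosis and as a risk gene for Alzheimer's disease, had signals of 211 in drug-selected cells and 129 in parental cells with 1 probe, or 1.30-fold, and was detected on neither array with the other. ABCA3, the surfactant lipid transporter of lung alveolar cells, had signals of 70.9 in drug-selected cells and 63.0 in parental cells, a log2 difference of -0.27. None of these passed 2-fold. Of the detected probes, those of ABCA3 and ABCA5 were the ones with a negative difference, apart from the change of sign of 1 ABCA5 probe given above.

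**Figure D3:**
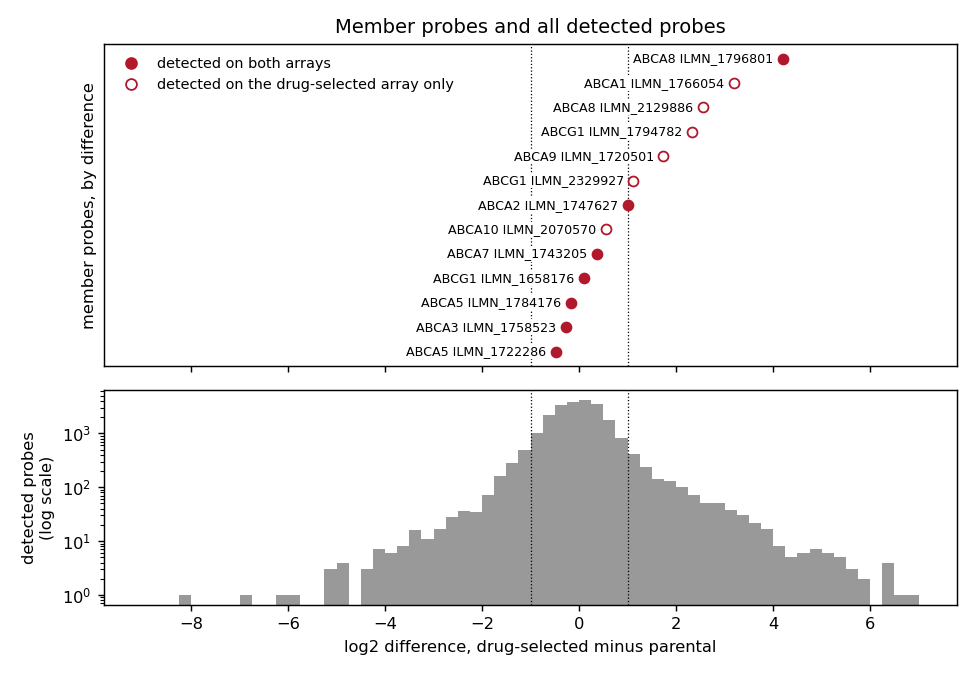
Top, log2 difference, drug-selected minus parental (x axis), of the 13 detected probes in order of size, filled where detected on both arrays and open where measured against a parental signal not above background. Bottom, the same quantity for all 23307 detected probes (y axis, number of probes on a log scale), with dotted lines at 2-fold. From ABCA8 at 4.21 down to an ABCG1 probe at 1.12, 6 of the 13 lie right of the upper line and none lies left of the lower one.

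The size of the large differences moved with the processing of dim signals. Over 7 other ways of correcting and scaling the signals, the log2 difference of the first ABCA8 probe ranged from 3.56 to 4.68. For probes not detected in parental cells the bound on the log2 scale is given instead, and it ranged from 1.42 to 3.14 for the second ABCA8 probe, from 1.89 to 3.76 for ABCA1, from 1.21 to 2.83 for ABCG1 probe ILMN_1794782 and from 1.06 to 2.59 for ABCA9. These 5 probes were past 2-fold in each of the 7. The other ABCG1 probe, ILMN_2329927, had bounds from 0.25 to 0.92 and ABCA10 from 0.24 to 0.89, none of them past 2-fold. ABCA2, detected on both arrays, ranged from 0.79 to 1.44 and so lay on either side of 2-fold depending on the setting. In the authors' own normalized values the ratio of drug-selected to parental signal was 13.0 for the first ABCA8 probe and 3.25 for the second. It was 4.79 for ABCA1, 2.88 for ABCG1 probe ILMN_1794782 and 2.13 for ABCA9. Apart from the first ABCA8 probe, these ratios lie below the bounds given above, which hold only under the main setting.

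**Figure D4:**
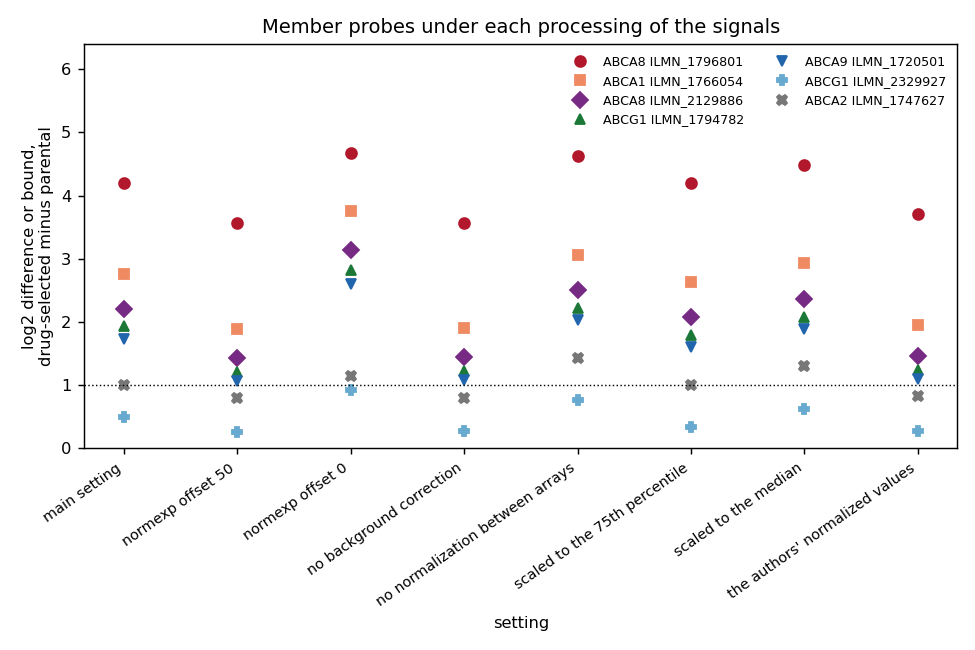
Log2 difference, drug-selected minus parental (y axis), of 7 probes under the main setting and 7 other settings (x axis), with a dotted line at 2-fold. Probe ILMN_1796801 of ABCA8 and the ABCA2 probe were detected on both arrays, and the other 5 are drawn at their bounds. The probes of ABCA8, ABCA1 and ABCA9 and 1 probe of ABCG1 stay above the line throughout, ABCG1 probe ILMN_2329927 stays below it, and ABCA2 crosses it.

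Genes of the LXR pathway were described from lists of known genes at 1 probe per gene. NR1H3, which encodes LXR alpha, was 4.12-fold higher, with a signal of 385 in drug-selected cells and 92.1 in parental cells. Its partner RXRA was 2.35-fold higher, with 590 in drug-selected cells and 205 in parental cells, RXRB was within 2-fold at -0.19 and RXRG was 3.05-fold lower by 1 of its 2 detected probes. NR1H2, which encodes LXR beta, has no probe in the annotation used here and was not analysed. PPARG, a fatty acid receptor that in macrophages raises LXR alpha, was at least 15.0-fold higher and undetected on the parental array, with signals of 547 in drug-selected cells and 56.1 in parental cells and with both of its detected probes past 2-fold. Its coactivator PPARGC1A was 2.11-fold higher, and PPARD and PPARA were within 2-fold. Of 4 detected LXR and RXR genes, 2 were thus higher and RXRG was lower. Of 4 detected PPAR receptor and cofactor genes, 2 were higher and none was lower. Over all detected genes, 7.12% were higher and 5.84% lower at 1 probe per gene.

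LXR targets other than ABCA1 and ABCG1 lay on both sides of parental cells. Of 14 detected among the 18 with a named probe, 2 were higher and 3 lower, against 7.12% higher and 5.84% lower over all detected genes. Their median log2 difference was -0.07, against 0.00 over all genes, and turned to 0.36 with no normalization between arrays and to 0.23 with scaling to the median, both of which also moved the median of all detected probes upwards (0.35 and 0.21). The higher ones were NR1H3 itself, which LXR can induce, and MLXIPL, a glucose-responsive transcription factor, at least 1.64-fold as a bound. MYLIP, a ligase that degrades the low-density lipoprotein receptor, was 5.00-fold lower, with a signal of 547 in drug-selected cells and 1941 in parental cells. The fatty acid synthesis genes FASN and SCD were 3.29-fold and 2.11-fold lower. SREBF1, LPCAT3, SMPDL3A, APOE, APOC1, PLTP and LPL, all known LXR targets, were detected on both arrays and within 2-fold. APOE, an acceptor of the lipid that ABCA1 exports, had a log2 difference of -0.01.

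Under the main setting, genes that bring cholesterol into the cell or make it were lower more often than higher, beside 5.84% lower and 7.12% higher over all detected genes. Of 5 detected lipoprotein receptors and partners, 4 were lower and none was higher, the median being -1.31 on the log2 scale. SCARB1, a receptor of high-density lipoprotein, was 3.37-fold, LRP8 2.59-fold by both probes and VLDLR 2.48-fold lower, and CD36, MSR1 and OLR1, the scavenger receptors of macrophages, were not detected on either array. Of 19 detected genes of cholesterol synthesis and its control, 7 were lower and 2 higher (median -0.87). These counts depend on the scaling. With no normalization between arrays 1 synthesis gene and 1 receptor were lower, with scaling to the median 3 and 3, and with an offset of 50 or no background correction 4 and 4. The synthesis genes that were higher numbered 2 with no normalization between arrays, so that more were higher than lower there. They numbered 2 with scaling to the median and 1 with an offset of 50 or no background correction. No receptor was higher under any of these. SC5D was 3.13-fold, LSS 2.66-fold by 1 of 3 probes and MVD 2.47-fold lower, while TM7SF2 was 2.36-fold and INSIG2, which holds back the sterol-sensing factors, 2.02-fold higher. Of 18 detected genes of cholesterol traffic and storage, 2 were lower and 1 was higher, and the median of -0.26 turned positive under 2 scalings (no normalization between arrays and scaling to the median). CAV1, the coat protein of caveolae, was 4.53-fold higher by the brighter of its probes and past 2-fold by both, and the storage enzyme SOAT1 and the lysosomal NPC2 were 2.32-fold and 2.10-fold lower. Apolipoproteins and lipoprotein enzymes, 11 of 23 detected, had 2 higher and 1 lower, with a median of 0.40 that was 0.08 with bounds. APOL3 was 3.03-fold higher, APOL2 at least 1.73-fold as a bound, and SCARB1 was the lower one, while APOA1, the usual partner of ABCA1, was not detected on either array.

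Set beside other ABC transporters, the ABCA and ABCG1 genes had 3 of 9 detected genes higher and none lower at 1 probe per gene, against 7.12% higher and 5.84% lower over all detected genes, with a median log2 difference of 0.55, or 0.48 with bounds. At this count ABCG1 is represented by the probe that differed by 0.11. The remaining ABCA and ABCG genes, ABCA4, ABCA12, ABCA13, ABCG2, ABCG4, ABCG5 and ABCG8, were not detected on either array except ABCG4, which differed by -0.28. Of 13 detected ABCB and ABCC genes, 4 were lower and 1 was higher, and the median was -0.60. The count of 4 was 2 with an offset of 50 or with no normalization between arrays. ABCC3 was 10.4-fold higher, while ABCB1, which encodes P-glycoprotein, was at least 4.70-fold, ABCB4, a phosphatidylcholine transporter of bile, at least 2.50-fold and ABCC2 2.50-fold lower. None of 5 detected ABCD, ABCE and ABCF genes passed 2-fold, with a median of 0.16. These are counts over a single pair of arrays, and the difference between the families was not tested.

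**Figure D5:**
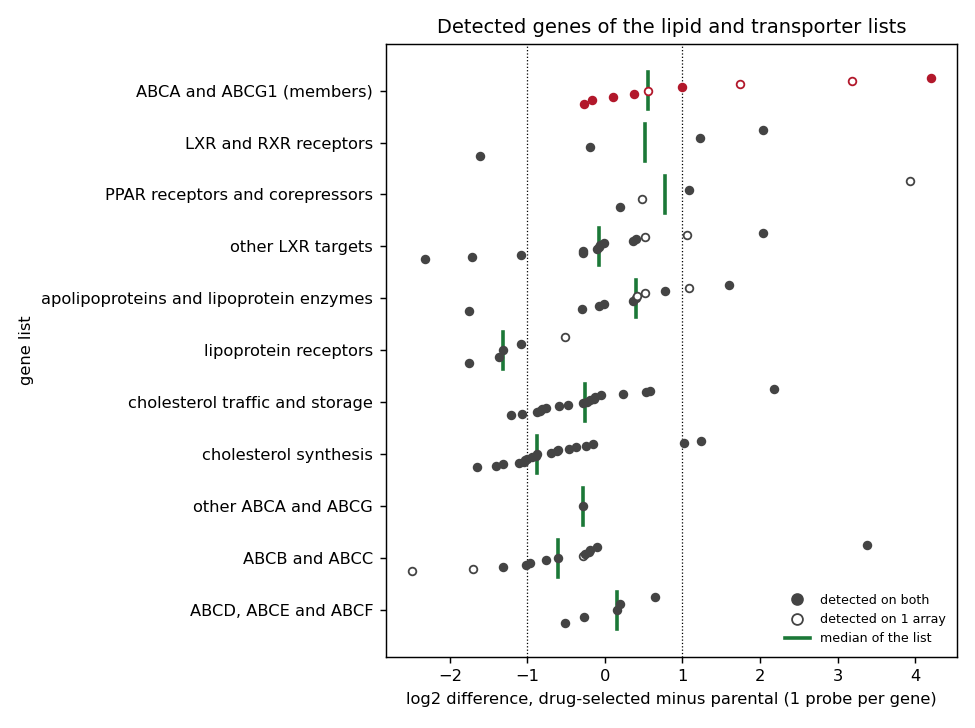
Log2 difference, drug-selected minus parental (x axis), of each detected gene of the lipid and transporter lists (rows), at 1 probe per gene, filled where detected on both arrays, with the median of each list as a green bar and dotted lines at 2-fold. Lipoprotein receptors and cholesterol synthesis genes lie to the left with medians of -1.31 and -0.87, and ABCA8 lies at 4.21. Open points are measured against a side not above background.

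ABCA1 and ABCG1 are abundant in macrophages, and ABCA8 and ABCA9 in fibroblasts and fat, so markers of other cells were read on the same arrays. In RNA from whole cultures, a different share of cells of a type and a different amount of RNA per cell cannot be told apart. The marker counts stand beside 7.12% higher and 5.84% lower over all detected genes. Of 9 macrophage and leukocyte markers 5 were detected and 2 were higher, CD14 (10.4-fold) and LYZ (at least 1.90-fold). CD68 was within 2-fold (log2 difference 0.89), as were ITGAM and AIF1, detected in parental cells only (-0.36 and -0.64). The summed normalized signal, of which CD68 gave the largest part, was 2879 in drug-selected cells and 1415 in parental cells. Here and below the sum takes 1 probe of each marker with a named probe, undetected ones included, and these add background to it. It weighs probes that may bind unequally, and is set only against the same sum on the other array. The leukocyte antigen PTPRC and the macrophage genes CD163, CSF1R and FCGR1A were not detected on either array. Of 9 fibroblast markers 8 were detected, 5 were higher, led by PDGFRB at least 6.65-fold, FAP 5.50-fold and THY1 at least 2.58-fold, and 2 were lower, DCN (8.32-fold) and LUM (3.06-fold). The summed signal was 1911 in drug-selected cells and 3753 in parental cells, and COL1A2 was not detected on either array. Among 4 adipocyte markers FABP4, a lipid carrier and PPARG target, was at least 6.59-fold higher and LEP was within 2-fold, while ADIPOQ and PLIN1 were not detected, with a summed signal of 510 in drug-selected cells and 447 in parental cells. Endothelial markers had TEK at least 5.74-fold and PECAM1 2.41-fold higher among 3 detected of 6, with VWF within 2-fold. Their summed signal was 344 in drug-selected cells and 160 in parental cells. Epithelial markers had KRT8 at least 6.95-fold higher among 3 of 5 (summed signal 307 in drug-selected cells and 129 in parental cells). EPCAM, detected in drug-selected cells only, and KRT18, detected in parental cells only, were within 2-fold. Of 6 melanocytic markers with a named probe 5 were detected on both arrays. Of these 4 were lower, TYR by 303-fold, MLANA by 27.7-fold, PMEL by 13.2-fold and MITF by 6.45-fold with 1 of 2 detected probes. The TYR signal of 69.0 in drug-selected cells was close to background (detection p-value 0.0208), so the size of its fold depends on the processing of dim signals. SOX10 was within 2-fold, and the summed signal was 4024 in drug-selected cells and 43156 in parental cells. The part of these markers in the ABCA and ABCG1 differences was not tested.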

How the data were processed

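RNA of 1 culture each of drug-selected and parental A2058 cells was measured on 1 HumanHT-12 v4 array each, grouped by the sample labels. The authors deposited average signals, an intensity on a linear scale, not normalized between arrays, together with detection p-values from the negative controls, also deposited by the authors. The study's methods say that background was subtracted for each bead. The lowest deposited signals were nevertheless 30.5 (drug-selected) and 25.7 (parental), so a level set by the negative controls was still in them. A second table holds the authors' normalized intensity on a linear scale. Its normalization method is not stated in the sources read. Each column keeps the order of the deposited signals, and its 2 columns, once sorted, differ by a median of 0.025%.

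Signals were corrected with limma 3.58.1 in R 4.3.3 (normexp, background inferred from the detection p-values, offset 16), quantile normalized and log2 transformed. The fold of a dim probe depends on these steps. A probe was kept if either array gave it a detection p under 0.05. The fold is drug-selected over parental, with the study's thresholds of 2 and 0.5. The methods of the study define it for suspended and adherent cells, terms the labels do not use. For lists, each gene counted once, by the brightest of its kept probes (mean of both arrays). Bounds use the lowest log2 signal among detected probes, 4.80 for drug-selected and 4.89 for parental cells. Symbols came from the platform's annotation (1 symbol for 30113 probes, several for 8, none for 17202) and 30074 matched GRCh38.p14 by gene identifier. Promoters came from RefSeq, and protein sequences were not used here. With 1 array per group there is no test, and this number limits the precision.

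The members and the 17 gene lists were chosen with earlier results of these data known. Named are all members with every probe, the 3 largest differences past 2-fold in each direction of each list, every LXR and RXR gene, and further members of lists as context, chosen after their values were seen. Alternatives were normexp offsets of 50 and 0, no background correction, scaling to the median or 75th percentile of all probes, no normalization between arrays, the authors' values, other detection filters, and thresholds of 1.5-fold and 3-fold. The scripts were tested on simulated arrays. Python 3.11.15, numpy 2.4.6, pandas 2.3.3 and matplotlib 3.10.9 were used.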

Additional observations from a re-analysis of the deposited data

How the results depend on the processing

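Of the member probes, 6 were higher and 0 lower in drug-selected cells. The higher count ranged from 5 to 8 over 11 of 12 alternatives. With only probes detected on both arrays it was 1, since 5 of the 6 were detected on the drug-selected array only. No member probe was lower under any of the 12. Of 111 log2 differences of member probes under an alternative, 81 moved by less than 0.297, the single-probe SD given above. The other 30 moved by more, and no probe past 2-fold changed sign. The 81 include values under the other detection filters, which choose probes and cannot move a difference. The count of 81 therefore overstates how stable the differences were under other processing of the signals. With the normexp offset of 0 the share of all detected probes that were higher was 11.6%, and 8 members were. The balance between directions followed the scaling. Of the probes past 2-fold 53.6% were higher, against 84.3% with no normalization between arrays (2842 higher and 528 lower), which left the median of detected probes at 0.35, and 75.6% with scaling to the median (2124 and 686), which left it at 0.21. At 1.5-fold 3176 probes were higher and 3469 lower, at 3-fold 647 and 345, and with the normexp offset of 0 2698 and 2640. The counts were 863 and 713 with an offset of 50, and 919 and 724 with no background correction. The authors' values gave 966 and 784. With scaling to the 75th percentile they were 1229 and 1357. Probes detected on both arrays gave 876 and 1010. With no normalization between arrays and with scaling to the median, the medians of cholesterol traffic genes (0.148 and 0.012) and of other LXR targets (0.362 and 0.226) turned positive. No paired analysis was possible because each group has 1 array, and no replicate could be left out. Dim signals limit the folds of ABCA1, ABCA9, ABCA10 and ABCG1, whose parental signals lay near background.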

Other observations

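The pseudogenes of the subfamily stayed near background. ABCA11P was detected in drug-selected cells only, with a signal of 67.8 against 55.0 in parental cells (detection p-values 0.0312 and 0.0753), and ABCA17P on neither array. Both had log2 differences near 0, at 0.04 and -0.02.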
